A study of Mus musculus with 8 samples.

Results

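The 245kb-INV allele, in which most of the topologically associating domain (TAD) of Tsix is turned around on the X chromosome, was compared with the Chic1-4kbD allele, which keeps the reference order. Both alleles were profiled by carbon-copy chromosome conformation capture (5C), a method in which fragments of crosslinked chromatin that lie near each other are ligated, and each ligation product is counted by a forward and a reverse primer. The members were the libraries whose genotype label is 245kb-INV or Chic1-4kbD, which are 4 of the 8 libraries, 2 for each allele. All cells were male E14 mouse embryonic stem cells (mESCs) of strain XY, 129/Ola, kept undifferentiated (day 0), so each library reads a single X chromosome. The 245kb-INV libraries come from 2 clones made with CRISPR-Cas9, and the Chic1-4kbD libraries from 2 clones of an older deletion allele. The control is thus itself a mutant that has lost CTCF sites within Chic1, and wild-type 5C libraries were not analysed here. The library titles of 245kb-INV carry the prefixes B27 and B28 and those of Chic1-4kbD the prefix B29, whose meaning the labels do not give. If the prefixes mark batches, batch and allele cannot be told apart.

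TADs are stretches of chromatin whose sequences contact each other more than they contact their neighbors. Many are bounded by sites of the DNA-binding protein CTCF, at which cohesin stops extruding a chromatin loop, preferentially when the motifs of the paired sites point towards each other. The X-inactivation center (Xic) holds a pair of adjoining TADs. One contains Xist, the noncoding RNA that coats and silences the X chromosome, with its neighbors Enox (also called Jpx) and B230206F22Rik (Ftx). The other contains the promoter of Tsix, the antisense repressor of Xist, with Xite, an enhancer of Tsix, and further left the noncoding locus Linx (annotated as 4930519F16Rik), the homeobox gene Cdx4, Chic1, Tsx and Nap1l2, a gene for a nucleosome assembly protein-like factor. The paper describes Linx as noncoding, whereas the annotation used here lists 4930519F16Rik as protein-coding.

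The inverted interval is 244689 bp long. Its left breakpoint lies between Nap1l2 and the sequence further left, within the HindIII fragment chrX:100374901-100378305 (mm9), and its right breakpoint between Tsx and Xite, within the fragment chrX:100618973-100623270. Neither breakpoint lies in an annotated gene. The sequence at the junctions is shown because it sets which loci become neighbors. In the lines that follow, capitals mark the bases that lie inside the interval, and the reference windows are chrX:100377299-100377358 and chrX:100621988-100622047 on the forward strand of mm9. The joined sequences were assembled from this reference, not read from the clones, in which the junctions may differ by some bases.
Reference left: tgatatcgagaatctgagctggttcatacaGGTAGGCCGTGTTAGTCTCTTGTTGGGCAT
Reference right: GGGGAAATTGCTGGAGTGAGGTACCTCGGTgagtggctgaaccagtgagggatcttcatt
Joined left: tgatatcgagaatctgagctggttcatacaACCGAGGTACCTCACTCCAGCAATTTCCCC
Joined right: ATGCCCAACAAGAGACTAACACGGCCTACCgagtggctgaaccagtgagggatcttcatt

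The map was cut into tiles from the breakpoints outward. The interval was divided into 5 inner tiles of 48.9 kb, I1 to I5 from left to right in the reference, and the flanks into tiles of 50 kb, L1, L2 and so on to the left and R1, R2 and so on to the right. Tile I1 (chrX:100378306-100422979) holds Nap1l2 and the 3′ part of Linx, I2 (chrX:100422980-100475371) the body of Linx, and I3 (chrX:100475372-100525211) the start of Linx and of Cdx4. Nap1l2 covers only chrX:100379515-100381979. Tile I1, called the Nap1l2 tile below, is thus mostly Linx sequence, and its changes cannot be assigned to Nap1l2. Tile I4 (chrX:100525212-100565597 for the fragments kept) holds the start of Chic1, and I5 (chrX:100579405-100618972) the 3′ part of Chic1 and Tsx. To the right, R1 (chrX:100623271-100672498) holds Xite, the start of Tsix and the 3′ part of Xist, R2 (chrX:100672499-100720676) the start of Xist and Enox, and R3 and R4 hold B230206F22Rik. Xite has no entry in the annotation used. Its place in R1 follows the paper, which leaves Xite and Tsix outside the inversion and describes Xite as near Tsix. Tile R5 holds Zcchc13, and the left tiles L1 to L5 hold no annotated gene other than pseudogenes. Inversion moves I1 next to R1 and I5 next to L1. It leaves the distances within the interval as they were, and it leaves the middle tile I3 as far from each flank as before.

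A pattern that resembles the core of the CTCF motif, CCNNNAGNNGGCNC, was searched on both strands, since the orientation of such sites is what an inversion turns around. It was chosen after several patterns had been compared. It was present in 59 of the 88 tiles with primers (67.0%), so a match is common and is not evidence of a CTCF site. Within the interval there were 11 matches. In I1, I2 and I3 the forward strand held 1, 2 and 2 matches and the reverse strand 0, 0 and 1, whereas both matches of I4 and both of R1 were on the reverse strand. In I5 there were 2 matches on the forward and 1 on the reverse strand. One example from each of the tiles I2, I3, I4 and R1 is printed, with the match in capitals and read along the strand that holds it. The R1 example lies within annotated Tsix.
I2, chrX:100429922-100429951, forward strand: cagacacaCCAGAAGAGGGCGCcagatcgc
I3, chrX:100478949-100478978, forward strand: cctgcagaCCAGAAGAGGGCACccgatctc
I4, chrX:100567166-100567195, reverse strand: cctgtaggCCAGAAGAGGGCACcagatctc
R1, chrX:100649575-100649604, reverse strand: cagatataCCAGAAGAGGGCACcagatccc
The I4 match lies in the fragment chrX:100565598-100567847, whose count in the Chic1-4kbD clones was 13.1% and 14.7% of its mean in the 4 inversion libraries, scaled to library totals. This fragment and the 3 others lost in Chic1-14kbD, the larger Chic1 deletion of the series, were left out of every tile pair. The other match of I4 lies in the fragment chrX:100567977-100576563, which is among those left out.

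The total count was 16874785 and 20934189 for the 245kb-INV clones and 10517045 and 8184318 for the Chic1-4kbD clones, of which 97.3% to 97.8% joined X-chromosomal primers. The rearrangement was first checked at the junctions, in counts scaled to the X-chromosomal total of the library (CPM) per primer pair and without correction for distance. Tile L1 contacted its reference neighbor I1 at 8.70 and 12.6 CPM in the 245kb-INV clones, against 28.4 to 32.5 CPM in the 6 libraries of the other alleles. It contacted its new neighbor I5 at 29.2 and 26.1 CPM in the 245kb-INV clones, against 2.86 to 5.09 CPM in the 6 others. At the right breakpoint, R1 contacted its reference neighbor I5 at 11.2 and 11.3 CPM, against 18.9 to 22.4 CPM, and its new neighbor I1 at 21.3 and 24.9 CPM, against 9.35 to 11.6 CPM. Both 245kb-INV clones lay apart from all other libraries at all 4 junction pairs, in the direction that the labelled order gives.

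Contacts were then compared after correction for distance. How often a primer pair should be counted was read from the decay of counts with distance in the same library, at the position that the sequence has on its allele. A value of 0 for observed over expected counts on the log2 scale (log2 O/E) means that a pair was counted as often as the average pair at that distance. Differences are log2 fold changes of 245kb-INV over Chic1-4kbD from the quasi-likelihood test of edgeR, with Benjamini-Hochberg adjustment over all 1072 tile pairs tested up to 700 kb apart. At an adjusted p below 0.05, 39 tile pairs changed (3.64% of those tested), 15 of them higher (1.40%) and 24 lower (2.24%) in 245kb-INV. In these 39 pairs both 245kb-INV clones lay on 1 side of both Chic1-4kbD clones, which was true of 44.4% of all tile pairs. The changes were concentrated at the interval, with 30 of the 109 pairs that hold an inner tile called (27.5%) and 9 of the 963 others (0.935%). The counts depended on the control clones. They were 9 higher and 13 lower without clone 1 of Chic1-4kbD and 5 higher and 10 lower without clone 2, with the direction of all 39 pairs unchanged. When outlying primer pairs were left out, 3 pairs were called higher and 4 lower, 5 of them among the 39, and 37 of the 39 kept their direction.

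**Figure D1:**
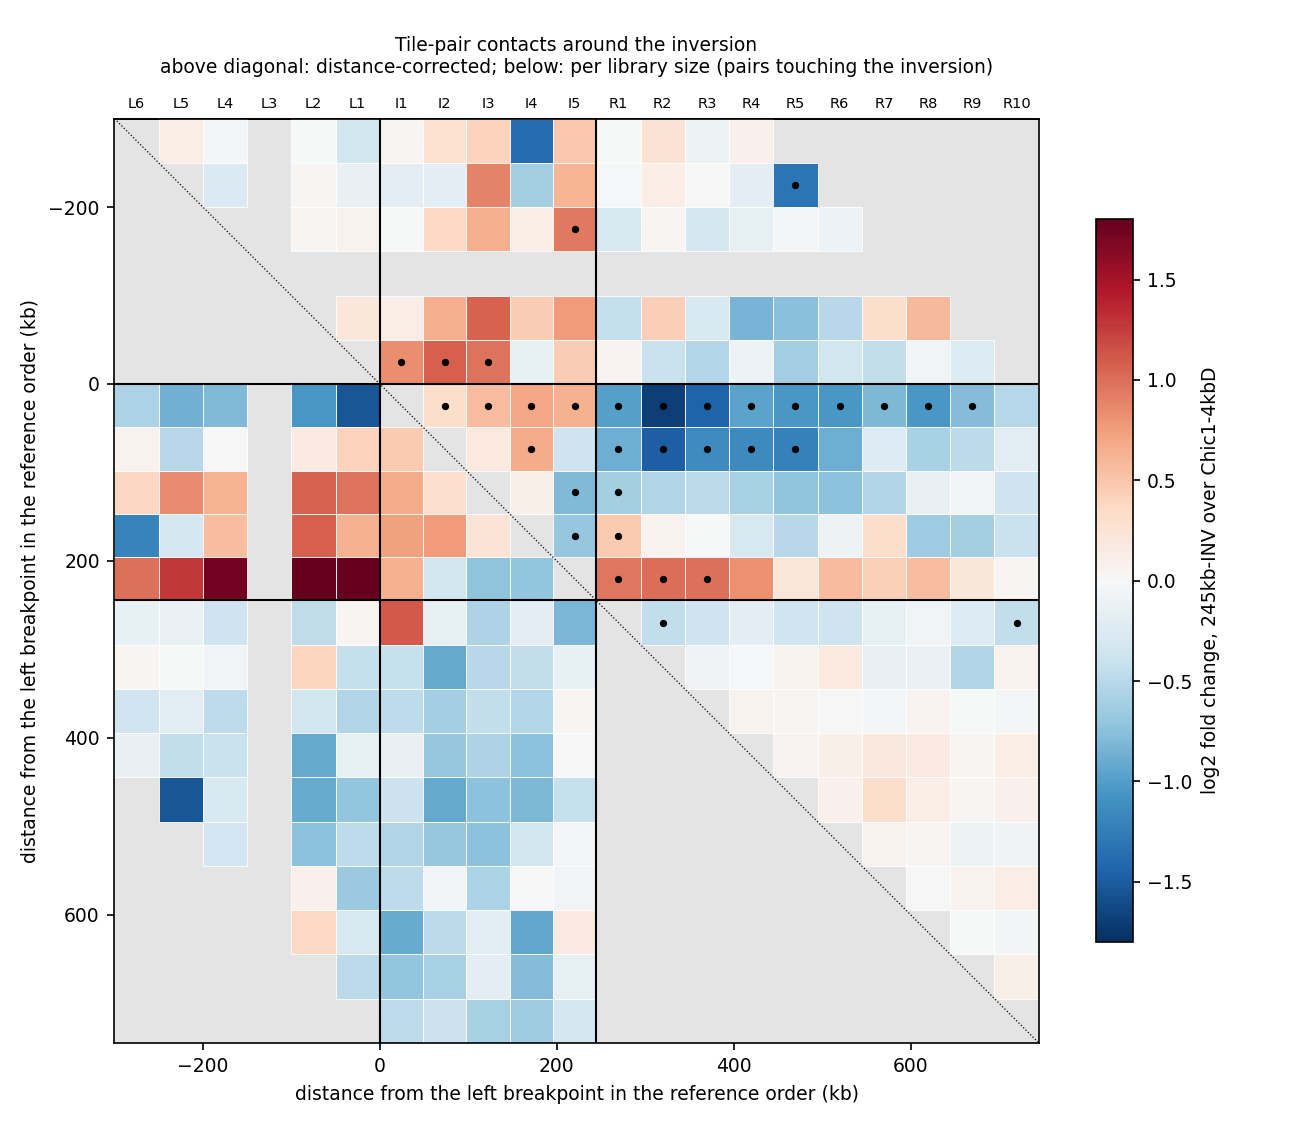
Log2 fold change of each tile pair, 245kb-INV over Chic1-4kbD, with both axes in kb from the left breakpoint in the reference order, tile names on top and breakpoints as black lines. Above the diagonal values are corrected for distance and dots mark the called pairs; below it pairs that hold an inner tile are scaled to library size only, and colors saturate at the ends of the bar. Above the diagonal, I1 and I2 are lower with R1 to R5 and I5 is higher with R1 to R3.

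Inside the interval, contacts of tile I1, with Nap1l2 and the 3′ part of Linx, were higher in 245kb-INV than in Chic1-4kbD. Those between the starts of Linx and Chic1 and the Tsx end were lower. The inversion leaves distances within the interval unchanged, and those across the Chic1 deletion are 4 kb shorter in the control. Of the 10 inner pairs, 5 rose and 2 fell (70.0% called, against 3.64% of all pairs), and the median log2 fold change was 0.26, against 0.03 for all tile pairs. With library size alone 7 inner pairs were called as well, the 10 log2 fold changes kept their direction, and the median was 0.39. Summed over all inner pairs, log2 O/E was 0.53 and 0.53 in the 245kb-INV clones and 0.52 and 0.50 in the Chic1-4kbD clones. The means, 0.53 ± 0.0038 and 0.51 ± 0.011 (SD, n = 2 clones each), differed by 0.02, or by 0.10 with library size alone. Single inner pairs differed by -0.79 to 0.70, in both directions.

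The Nap1l2 tile I1 rose with each of the 4 other inner tiles. With I5, which holds Tsx and lies at the other end of the interval, log2 O/E was 0.77 and 0.64 in the 245kb-INV clones and 0.06 and 0.09 in the Chic1-4kbD clones. The log2 fold change was 0.63 (SE 0.122, adjusted p = 0.0027) over 127 primer pairs. With I4, the Chic1 start, the clones were at 0.34 and 0.71 against -0.17 and -0.16, a log2 fold change of 0.70 (SE 0.158, adjusted p = 0.0102). The rise with I3 (log2 fold change 0.56, adjusted p = 0.00446) was similar in size, and that with I2, the adjacent tile, was smaller (0.34, adjusted p = 0.0369). The I1-I2 rise missed the threshold in 6 of the alternatives run.

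The body of Linx and the start of Chic1 (I2 and I4) also contacted each other more in 245kb-INV than in Chic1-4kbD. Their log2 O/E was 1.29 and 1.37 in the 245kb-INV clones and 0.71 and 0.62 in the Chic1-4kbD clones, with a log2 fold change of 0.66 (SE 0.125, adjusted p = 0.00229). These were the highest values of any inner pair on the inverted allele. On the control allele the highest values were instead those of I2 with I5, at 1.40 and 1.40, where the 245kb-INV clones were at 1.16 and 0.87. That difference, -0.37, was not past the threshold (adjusted p = 0.07), although the clones did not overlap. For the deletion of the control, the paper describes fewer contacts between Chic1 and Linx than in wild type, close to noise. The part of that deletion in the difference of I2-I4 was not tested.

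The Tsx end of the interval contacted the 2 tiles before it less in 245kb-INV than in Chic1-4kbD. Between I3 and I5, log2 O/E was 0.46 and 0.52 in the 245kb-INV clones and 1.31 and 1.26 in the Chic1-4kbD clones. The log2 fold change of -0.79 (SE 0.0859, adjusted p = 2.53e-06) was the smallest p of the inner pairs. In counts this was a change from 24.8 ± 0.27 CPM per primer pair (SD, n = 2 clones) to 14.9 ± 0.23 CPM (SD, n = 2 clones). Between I4 and I5, on either side of the Chic1 deletion, the clones were at -0.47 and -0.77 against -0.08 and 0.23 (log2 fold change -0.70, adjusted p = 0.000766). The control lacks sequence between I5 and the other inner tiles, I3 and I2 included, and the inverted allele does not. In the Chic1-14kbD libraries log2 O/E was 1.24 and 1.29 for I3-I5 and 0.54 and 0.50 for I4-I5. The part of the deletion in the differences of I5 was not tested. The adjacent pairs I2-I3 and I3-I4 were not called, with log2 fold changes of 0.18 and 0.10.

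The Linx-51kb-INV allele of the same series, in which a stretch within Linx is inverted and Chic1 is intact, gives a further set of values for these pairs. Its clones were at log2 O/E 0.68 and 0.48 for I1-I3 and at 0.63 and 0.71 for I1-I4. For I3-I5 they were at 0.42 and 0.35, and for I2-I5 at 0.38 and 0.15. For I2-I4 they were at 0.74 and 0.77, and for I1-I5 at 0.39 and 0.15. For I4-I5, on either side of the Chic1 deletion, they were at 0.01 and -0.17. The first lay between the Chic1-4kbD clones, the second below both of them, and both lay above the 245kb-INV clones. On I1-I3, I3-I5 and I2-I5 the Linx-51kb-INV clones thus lay beyond the 245kb-INV clones, on the side away from Chic1-4kbD, and on I2-I4 and I1-I5 they lay between the other alleles.

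**Figure D2:**
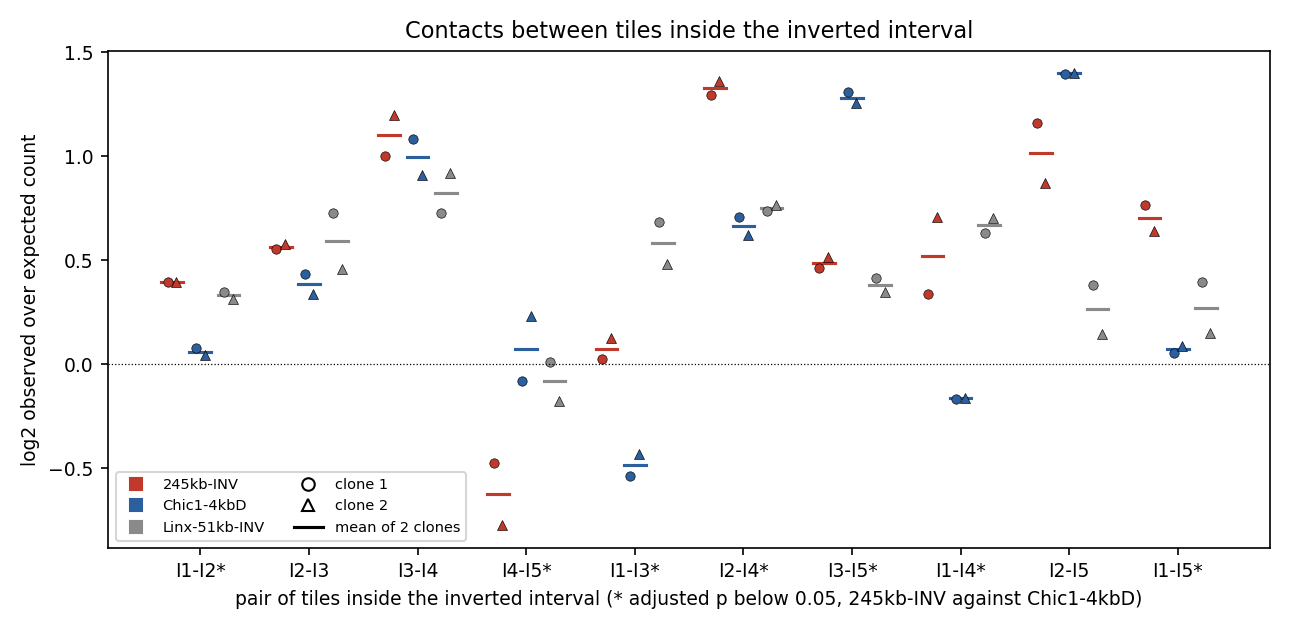
Log2 O/E (vertical axis) of the 10 pairs of inner tiles (horizontal axis) in the clones of 245kb-INV, Chic1-4kbD and Linx-51kb-INV, with bars at the mean of 2 clones. The 245kb-INV clones lie above the Chic1-4kbD clones in the pairs of I1 and in I2-I4, and below them in I4-I5, I3-I5 and I2-I5.

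Across the left breakpoint, the distance-corrected contacts of tile L1 with the Nap1l2 and Linx tiles were higher in 245kb-INV than in Chic1-4kbD. Of 39 pairs tested, 4 rose (10.3% called), and 31 of the 39 log2 fold changes were positive, with a median of 0.41. Summed log2 O/E of this class was 0.14 and 0.13 in the 245kb-INV clones and -0.22 and -0.15 in the Chic1-4kbD clones.

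Of the called pairs, L1 with I3, the start of Linx, is the one whose distance the inversion leaves unchanged, at 147 kb. Its log2 O/E was -0.42 and -0.11 in the 245kb-INV clones and -1.11 and -1.36 in the Chic1-4kbD clones. The log2 fold change was 0.97 (SE 0.206, adjusted p = 0.00592), and it was 0.98 (adjusted p = 0.011) with library size alone. In counts, 3.64 and 3.21 CPM per primer pair in the control became 6.06 and 7.44 CPM. The 8 left tiles tested with I3 all had positive log2 fold changes, from 0.29 to 1.06 with a median of 0.75, though L1 alone was called. Their median was 0.61 with library size alone.

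Pairs whose distance changed differed between the scales. L1 and I2 moved from 98.4 to 196 kb apart, and yet were counted at 11.2 and 11.2 CPM per primer pair in the 245kb-INV clones and at 8.48 and 8.32 CPM in the Chic1-4kbD clones. Corrected for distance the log2 fold change was 1.08 (SE 0.152, adjusted p = 7.97e-05), the highest of this class among called pairs, and with library size it was 0.42 (adjusted p = 0.391). L1 and I1, separated by the inversion from 49.5 to 245 kb, fell in counts by 1.55 on the log2 scale but kept more contacts than their new distance predicts, with a distance-corrected log2 fold change of 0.84 (adjusted p = 0.000288). In the new arrangement L1 and I5 are adjacent, and their log2 O/E of 0.17 and 0.01 was near that of an average pair at this distance. Their distance-corrected log2 fold change of 0.46 was not past the threshold (adjusted p = 0.0996). L4 and I5, which came as near as 199 kb, were at 0.67 and 0.55 in the 245kb-INV clones and at -0.33 and -0.36 in the Chic1-4kbD clones, a log2 fold change of 0.95 (adjusted p = 0.00281). The Nap1l2 tile I1 had a median of 0.14 over its 10 left pairs, 3 of them negative. The Chic1 start tile I4 had the lowest median on this side. Its 6 left pairs had log2 fold changes from -1.39 to 0.46, with no adjusted p below 0.05 and a median of -0.03.

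**Figure D3:**
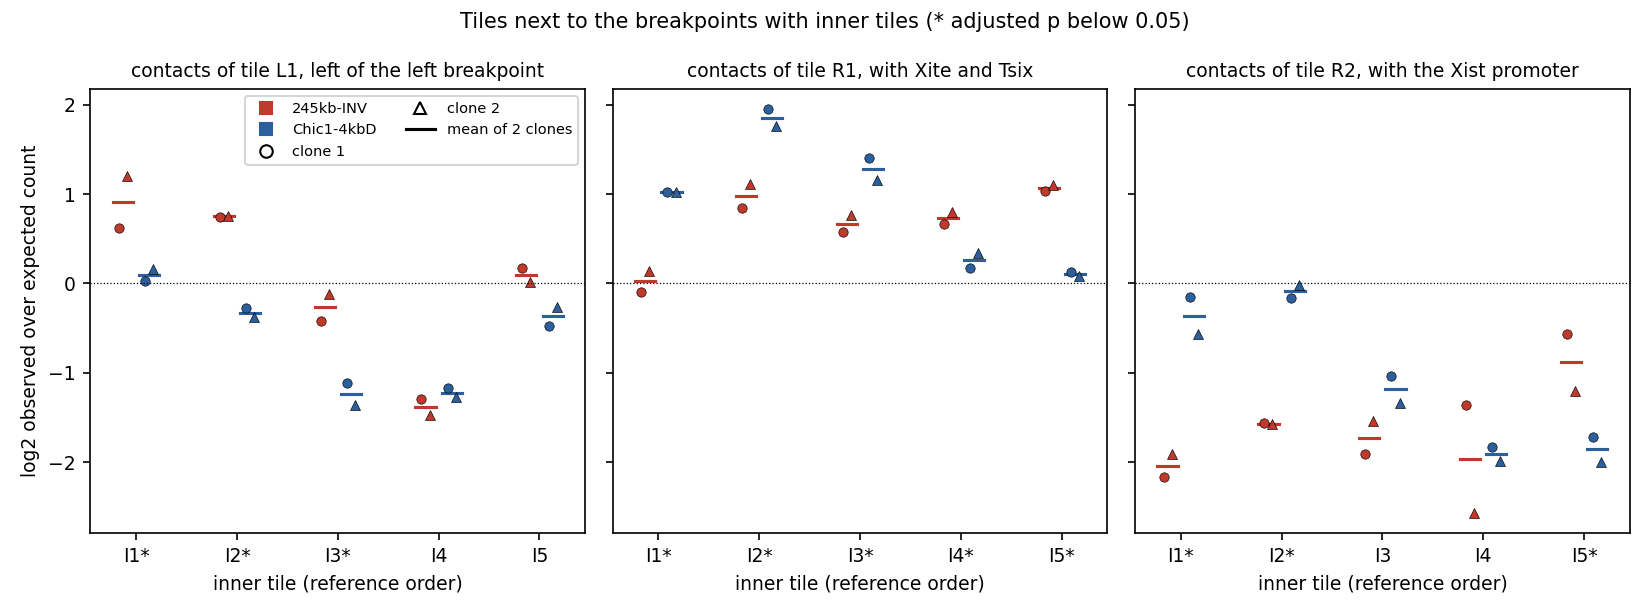
Log2 O/E (vertical axis) of tiles L1, R1 and R2 with each inner tile in reference order (horizontal axis), for the clones of 245kb-INV and Chic1-4kbD, with bars at the mean of 2 clones. With L1 the 245kb-INV clones are higher for I1 to I3; with R1 they are lower for I1 to I3 and higher for I4 and I5; with R2 they are lower for I1 to I3 and higher for I5.

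Across the right breakpoint, the distance-corrected contacts of the Nap1l2 and Linx tiles with the Tsix and Xist side were lower in 245kb-INV than in Chic1-4kbD, and those of the Tsx tile with R1 to R3 were higher. Of 60 pairs tested, 4 rose and 15 fell (31.7% called), 44 of the 60 log2 fold changes were negative, and the median was -0.49. Summed log2 O/E was -0.44 and -0.37 in the 245kb-INV clones and -0.15 and -0.20 in the Chic1-4kbD clones. It was -0.42 and -0.40 in the Linx-51kb-INV clones, near 245kb-INV, and -0.18 and -0.10 in the Chic1-14kbD libraries, near Chic1-4kbD. Here the inversion brings I1 and I2 nearer and takes I4 and I5 further away, so values with library size alone are given beside the corrected ones.

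The Nap1l2 tile I1 was lower with all 10 right tiles tested, 9 of which were called, R1 to R9. With R2, which holds the start of Xist, log2 O/E was -2.17 and -1.91 in the 245kb-INV clones and -0.15 and -0.57 in the Chic1-4kbD clones. The log2 fold change of -1.69 (SE 0.205, adjusted p = 1.16e-05) was the lowest of the called pairs. The tiles had come from 295 to 99.5 kb apart, and their counts were 2.47 and 2.90 CPM per primer pair against 3.99 and 3.17 CPM in the control. With R3, part of B230206F22Rik, the clones were at -1.31 and -1.41 against -0.13 and 0.30 (log2 fold change -1.46, adjusted p = 2.53e-06), and with library size the log2 fold change was -0.47 (adjusted p = 0.281). With library size alone 9 of the 10 pairs of I1 remained negative, with a median of -0.47, and of these I1-R8 was called (-0.91, adjusted p = 0.0373).

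The exception on the library-size scale was R1, the tile of Xite and Tsix, which the inversion placed beside I1. Counts between them rose from 10.4 and 11.1 to 21.3 and 24.9 CPM per primer pair, a log2 fold change of 1.11 (adjusted p = 4.57e-11). Log2 O/E nevertheless was -0.09 and 0.14 in the 245kb-INV clones and 1.02 and 1.02 in the Chic1-4kbD clones. The rise in counts was therefore smaller than the gain in proximity predicts, and the distance-corrected log2 fold change was -0.99 (SE 0.0925, adjusted p = 3.51e-07).

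The Linx tile I2 fell with R1 to R5 and was negative with all 11 right tiles tested, on both scales. With R1 its log2 O/E was 0.84 and 1.11 in the 245kb-INV clones and 1.95 and 1.76 in the Chic1-4kbD clones, the highest of any inner tile with R1 on the control allele (log2 fold change -0.88, adjusted p = 4.43e-05; -0.16 with library size, adjusted p = 0.720). In counts these tiles were at 19.1 and 22.7 CPM against 24.1 and 22.8 CPM, although they had moved from 196 to 98.4 kb apart. With R2 the clones were at -1.57 and -1.57 against -0.16 and -0.01 (log2 fold change -1.48, adjusted p = 7.97e-05), and the counts fell too (-0.92 with library size, adjusted p = 0.0295). Beyond R5 the log2 fold changes of I2 had a median of -0.54, with no adjusted p below 0.05. Summed over its right tiles, I2 was at log2 O/E -0.22 and -0.11 in 245kb-INV, -0.37 and -0.41 in Linx-51kb-INV, and 0.60 and 0.52 in Chic1-4kbD. The Linx-51kb-INV clones thus lay beyond the 245kb-INV clones, away from the control. For I1 they lay between, at -0.21 and -0.17 against -0.69 and -0.50 in 245kb-INV and 0.15 and 0.20 in Chic1-4kbD. The part of either allele in these differences was not tested.

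The middle tile I3 again keeps its distance under the inversion, apart from the 4 kb deleted in the control. It was lower with all 12 right tiles, with a median of -0.54 when corrected for distance and -0.57 with library size, and R1 was the pair called. There log2 O/E was 0.58 and 0.76 in the 245kb-INV clones and 1.41 and 1.16 in the Chic1-4kbD clones (log2 fold change -0.62, SE 0.121, adjusted p = 0.003; -0.56 with library size, adjusted p = 0.00257). The start of Linx thus had positive log2 fold changes with all left tiles and negative ones with all right tiles tested. Summed over the left tiles, I3 was at log2 O/E -0.27 and -0.30 in 245kb-INV, -0.03 and -0.28 in Linx-51kb-INV, and -1.10 and -1.04 in Chic1-4kbD. Over the right tiles it was at -0.59 and -0.51, -0.39 and -0.32, and 0.07 and -0.12 in the same order. On both flanks the Linx-51kb-INV clones thus also lay apart from the control, on the side of 245kb-INV.

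The Tsx tile I5, corrected for distance, contacted R1 to R3 more in 245kb-INV than in Chic1-4kbD, and with R1 alone of these the 245kb-INV values lay above those of an average pair at their distance. I5 and R1 moved from 49.5 to 245 kb apart, and log2 O/E was 1.03 and 1.10 in the 245kb-INV clones and 0.13 and 0.08 in the Chic1-4kbD clones. The log2 fold change of 0.96 (SE 0.0771) had the smallest adjusted p of the map, 5.09e-08, while the counts fell by 0.82 on the log2 scale (adjusted p = 2.05e-08). With R2 and R3 the distance-corrected log2 fold changes of I5 were 1.00 (adjusted p = 0.00592) and 0.99 (adjusted p = 0.00134), whereas with library size they were -0.15 and 0.03 and neither was called. Log2 O/E was -0.56 and -1.21 with R2 and -0.27 and -0.60 with R3 in the 245kb-INV clones, against -1.85 ± 0.20 with R2 (SD, n = 2 clones) and -1.48 and -1.35 with R3 in the Chic1-4kbD clones. The counts with the Xist start tile R2 were 3.13 and 1.91 CPM per primer pair in the 245kb-INV clones and 3.00 and 2.60 CPM in the Chic1-4kbD clones, and so overlapped. The Chic1 start tile I4 rose with R1 after correction for distance (0.48, adjusted p = 0.0329), but its counts did not, at 10.4 and 11.2 CPM against 11.3 and 13.3 CPM in the control (-0.19 with library size, adjusted p = 0.736). That call was also lost, in the same direction, in 8 of the alternatives run. The part of the control's Chic1 deletion in the difference of I4-R1 was not tested. Of the 13 right tiles tested with I4, 9 had negative log2 fold changes, and the median was -0.30. For the pairs of R1 with the inner tiles the order of log2 fold changes from I1 to I5 follows the change in distance that the inversion imposes. The part of the distance correction in this order was not tested. With the decay estimated near the interval, the log2 fold changes of I1-R1 and I5-R1 were -0.84 and 0.86.

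**Figure D4:**
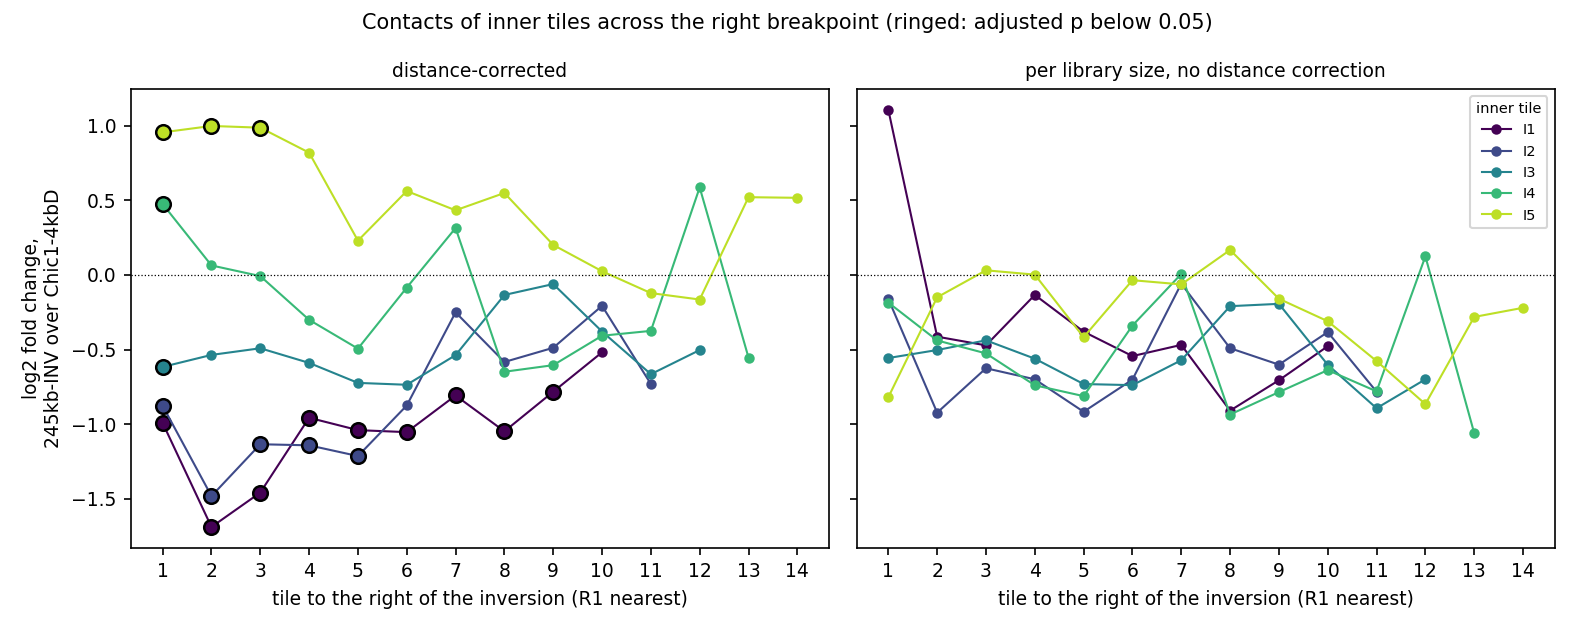
Log2 fold change, 245kb-INV over Chic1-4kbD (vertical axis), of each inner tile with the right tiles R1 to R14 (horizontal axis, R1 nearest), corrected for distance in the left panel and with library size alone in the right panel. In the left panel the curves of I1 and I2 lie lowest near R2 and that of I5 highest; in the right panel I1 with R1 is the point furthest above 0.

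Outside the interval, changes were few. Of the 252 pairs with both tiles to the left, 0 were called by edgeR (14 higher and 6 lower at an unadjusted p below 0.05) and 1 was called by DESeq2. Of the 679 pairs with both tiles to the right, edgeR called 8 (1.18%, 2 higher and 6 lower). At an unadjusted p below 0.05, 44 of these 679 were higher and 35 lower, and DESeq2 called 9 higher and 12 lower. One of the 8 called by edgeR lies next to the interval, between R1 with the start of Tsix and R2 with that of Xist. Its log2 O/E was -1.55 and -1.77 in the 245kb-INV clones and -1.26 and -1.15 in the Chic1-4kbD clones, a log2 fold change of -0.45 (adjusted p = 0.0446), and the call was lost in 7 of the alternatives run. R1 and R10 also fell (-0.45, adjusted p = 0.0333), though the log2 fold change was 0.66 against Chic1-14kbD.

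The other changes on the right lay far from the inversion. R48-R50 rose (log2 fold change 0.46, adjusted p = 0.00657) and so did R49-R56 (0.66, adjusted p = 0.0369). R3-R15 fell by 1.55 on the log2 scale (adjusted p = 0.00716), but its log2 O/E ranged from 2.71 to 4.68 between the Linx-51kb-INV clones, and the direction turned with a stricter primer filter and with Chic1-14kbD as the control. R11-R18, R22-R36 and R28-R30 fell by 0.55, 0.52 and 0.52 on the log2 scale, and each was positive against Chic1-14kbD. With tiles of 25 kb, all 35 pairs called among 4113 (0.851%) held a tile of the interval.

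Pairs that span the interval, with a tile on either side, keep their distance under the inversion and are 4 kb closer in the control. Of 32 such pairs, 9 log2 fold changes were positive and 23 negative. One pair was called, L5-R5 (3.12%), a share no higher than the 3.64% of all tile pairs. Its log2 O/E was -0.94 and -0.46 in the 245kb-INV clones and 0.48 and 0.76 in the Chic1-4kbD clones, over 21 primer pairs (log2 fold change -1.31, SE 0.324, adjusted p = 0.0208). The call was lost when outlying primer pairs were left out (log2 fold change -1.33, adjusted p = 0.601 by edgeR). L5 holds a pseudogene alone, and R5 holds Zcchc13.

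Contacts across each tile edge were also summed, taking the 5 tiles on either side in the order that the allele has. Lower values mean that an edge separates its sides more. At the R1-R2 edge, between the Tsix and Xist sides, log2 O/E was -1.05 and -1.15 in the 245kb-INV clones and -0.71 and -0.65 in the Chic1-4kbD clones, the lowest of the 16 edges on both alleles. The means of -1.10 ± 0.074 and -0.68 ± 0.042 (SD, n = 2 clones each) differed by -0.41. The left side of this edge was R1 with I1 to I4 in 245kb-INV and R1 with I2 to I5 in Chic1-4kbD. The difference thus compares partly unlike sequences. At the right breakpoint the clones were at -0.21 and -0.13 against 0.12 and 0.07, a difference of -0.26. At the left breakpoint the inverted allele was the higher one, at 0.30 and 0.27 against -0.05 and 0.04, a difference of 0.29. The left flank is sparse there: L3 held no kept primers, L2 held 2 and L5 held 3, while L1 and L4 held 8 each. Inside the interval the highest value was at the edge 97.9 kb from the left breakpoint in 245kb-INV (0.70 and 0.77) and at the edge 147 kb from it in Chic1-4kbD (0.81 and 0.73). These positions mirror each other about the middle of the interval. From the edge between R3 and R4 on, the differences lay between -0.05 and -0.01. These sums were not tested.

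**Figure D5:**
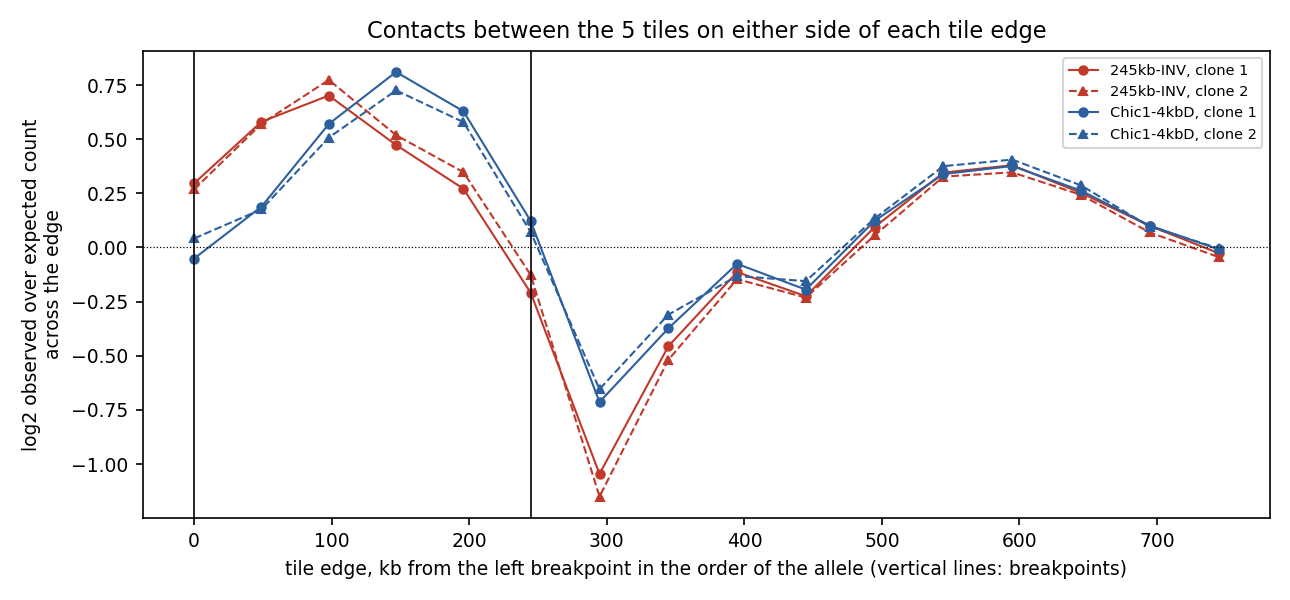
Log2 O/E (vertical axis) of contacts between the 5 tiles on either side of each tile edge, against the position of the edge in kb from the left breakpoint in the order of the allele (horizontal axis), per clone. The 245kb-INV clones lie above the Chic1-4kbD clones at the left breakpoint and below them from 147 to 345 kb, with the lowest point, -1.05 and -1.15, at the edge between R1 and R2.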

How the data were processed

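The 5C libraries of 8 mESC samples were used, and 4 of them (245kb-INV and Chic1-4kbD) are described. The authors removed adapters from the reads, matched them with Bowtie2 to every combination of a forward and a reverse primer, and deposited the raw read count of each combination. These counts carry no molecular identifiers, so reads are not independent molecules, and precede the removal of inefficient primers, pooling, binning and normalization. Primer positions are in mm9 per the file headers, and all 1039 X-chromosomal fragments end at HindIII sites of the mm9 (NCBIM37) sequence. Genes come from the GENCODE annotation of that build.

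Groups follow the genotype labels, and clone numbers follow the order of the samples. The tile pairs and the tests were chosen with earlier results of these data known. Primers were kept where their total over the libraries lay within 0.1 to 10 times the typical value for forward or reverse primers. Also left out were 4 fragments deleted in the Chic1 alleles and those that hold a breakpoint, which left 499 of 511 forward and 512 of 528 reverse primers. Expected counts were taken from 40 bins of distance per library, with positions mirrored on 245kb-INV and on Linx-51kb-INV (there within limits read from a figure by eye) and shortened on the deletion alleles. Counts were summed over 71309 primer pairs into 1077 tile pairs, and the 1072 whose mean count reached 50 entered the quasi-likelihood test of edgeR 4.0.16 (glmQLFit, glmQLFTest; R 4.3.3). All 8 libraries shared 1 fit, because the spread is poorly known from 2 libraries, with the log expected count as the offset. The spread is that between clones, except for Chic1-14kbD, whose 2 libraries carry 1 clone name. Standard errors were derived from the fold change and its F statistic.

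The text names the pairs that touch a breakpoint, in each class up to 3 called pairs of largest change in each direction, and pairs among the tiles I1 to I5, R1 and R2. I1-R8, R1-R10 and R28-R30 were named after their values were seen. On simulated counts for the 1072 tile pairs of this comparison, edgeR recovered 89% of 100 pairs changed by 1 on the log2 scale and 35% of 100 changed by 0.5, with 9 false calls. Alternatives included library size or reference positions in place of the corrected distance, other decays, filters and tiles, TMM factors, DESeq2 1.42.0, Chic1-14kbD as the control, and leaving out each library in turn. Total counts ranged from 8184318 to 20934189 in the 4 libraries and from 1614282 in all 8, and the median count of a tile pair from 1831 to 4491 in the 4.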

Additional observations from a re-analysis of the deposited data

How the results depend on the processing

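The counts of called pairs, 15 higher and 24 lower, changed most with the treatment of outlying primer pairs and with the libraries used. Leaving out primer pairs far above the rest of their tile pair gave 3 higher and 4 lower and raised the median dispersion from 0.0216 to 0.175. Tiles of 100 kb gave 7 and 6, the fit of the 4 libraries alone 31 and 41, and Chic1-14kbD as the control 92 and 98. DESeq2 called 25 higher, and a decay estimated near the interval 29 higher. Leaving out 1 library gave 5 to 13 higher and 10 to 21 lower, lowest without clone 2 of Chic1-4kbD (5 and 10) and next without its clone 1 (9 and 13). The cause of these changes was not tested. The alternatives with the decay near the interval and with spikes of 1 library left out were chosen after the data had been seen. No paired analysis was possible because the labels carry no replicate numbers.

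By class, calls within the interval, 7 in all, were 2 without outlying primer pairs, 0 with tiles of 100 kb, and 2 to 7 with 1 library left out. Across the left breakpoint, 4 calls became 9 with library size, 10 with reference positions, 1 without outlying primer pairs, 7 with DESeq2, 9 against Chic1-14kbD, and 2 to 4 with 1 library left out. Across the right breakpoint, 19 became 8 with library size, 6 with reference positions, 2 without outlying primer pairs, 6 with tiles of 100 kb, 36 against Chic1-14kbD, and 9 to 15 with 1 library left out. For spanning pairs, 1 call became 2 with the strict primer filter, 0 without outlying primer pairs and with tiles of 25 or 100 kb, 12 against Chic1-14kbD, and 0 to 2 with 1 library left out. To the left of the interval, 0 became 1 with library size, with the decay from outside pairs or near the interval, with 20 bins, with a minimum count of 200, with the strict primer filter, with TMM and with DESeq2, 2 with the 4 libraries alone, 22 against Chic1-14kbD, and 0 to 3 with 1 library left out. To the right, 8 became 5 with the strict primer filter, 2 without outlying primer pairs, 0 with tiles of 25 kb, 4 with tiles of 100 kb, 14 with the decay near the interval, 14 with TMM, 21 with DESeq2, 31 with the 4 libraries alone, 104 against Chic1-14kbD, and 2 to 7 with 1 library left out.

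The median log2 fold change within the interval, 0.26, was 0.39 with library size, 0.27 with reference positions, 0.28 with the strict primer filter, 0.28 without pairs under 20 kb, 0.17 and 0.054 with tiles of 25 and 100 kb, 0.22 with TMM, 0.42 against Chic1-14kbD, and 0.22 to 0.29 with 1 library left out. Across the left breakpoint, 0.41 was 0.12 with library size, 0.26 with reference positions, 0.36 with 20 bins, 0.35 with the strict primer filter, 0.47 without outlying primer pairs, 0.28 and 0.27 with tiles of 25 and 100 kb, 0.46 with at most 700 kb on both alleles, 0.48 with the decay near the interval, 0.37 with TMM, 0.34 against Chic1-14kbD, and 0.32 to 0.40 with 1 library left out. Across the right breakpoint, -0.49 was -0.58 with the strict primer filter, -0.61 without outlying primer pairs, -0.30 with tiles of 100 kb, -0.42 with the decay near the interval, -0.56 against Chic1-14kbD, and -0.49 to -0.38 with 1 library left out. The difference in summed log2 O/E within the interval, 0.02, was 0.10 with library size, 0.0060 with reference positions, 0.0073 with the strict primer filter, 0.049 with breakpoint fragments kept, 0.058 and 0.054 with tiles of 25 and 100 kb, and 0.043 with the decay near the interval. Across the left breakpoint, 0.32 was 0.19 with library size or reference positions, 0.37 without the primer filter, 0.24 with the strict one and 0.26 without pairs under 20 kb. Across the right breakpoint, -0.23 was -0.29 with the strict primer filter and -0.17 with the decay near the interval. For contacts across tile edges, the difference at the left breakpoint, 0.29, was 0.21 with reference positions, 0.35 without the primer filter and 0.19 without pairs under 20 kb. At the right breakpoint, -0.26 was -0.20 with library size, -0.21 without outlying primer pairs and -0.21 with the decay near the interval. At the R1-R2 edge, -0.41 was -0.34 with library size and -0.23 with reference positions.

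Of the 37 named pairs, 6 turned their direction with library size and 7 with reference positions, scales that ignore the change of distance, while other pairs whose distance changed kept theirs. With library size and with reference positions in turn, L1-I1 was at -1.55 and -1.66, I5-R1 at -0.82 and -0.94, I1-R1 at 1.11 and 0.99, I5-R2 at -0.15 and -0.24, I4-R1 at -0.19 and -0.26, and I4-R2 at -0.44 and -0.50. I5-R3 was at -0.024 with reference positions. I4-R2, at 0.06 and never called, was also negative without outlying primer pairs (-1.24), against Chic1-14kbD (-0.040) and without clone 2 of Chic1-4kbD (-0.013). With 1 library left out it ranged from -0.66, without clone 1 of 245kb-INV, to 0.55, without clone 2 of that allele. R3-R15 was at 0.42 with the strict primer filter and 2.74 against Chic1-14kbD. R22-R36 was at 0.28 without outlying primer pairs and 1.01 against Chic1-14kbD, where R11-R18 was at 0.58 and R1-R10 at 0.66. R28-R30 was at 0.080 and 1.53 under the same alternatives as R22-R36. Beside these, 108 values of called pairs kept their direction and missed the threshold, 24 of them without outlying primer pairs.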

Other observations

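With tiles of 25 kb the same steps placed some of the changes more finely, and the pairs given here were chosen after their values had been seen. The start of Linx and Cdx4, from 122 to 147 kb right of the left breakpoint, fell with the last 24.5 kb of the interval, which holds Tsx. Log2 O/E was -0.52 and -0.85 in the 245kb-INV clones and 0.74 and 0.57 in the Chic1-4kbD clones, a log2 fold change of -1.33 (SE 0.167, adjusted p = 0.000429 by edgeR). The stretch of Linx body from 73.4 to 97.9 kb instead rose with the start of Chic1, from 1.14 and 1.09 to 1.96 and 2.10 (log2 fold change 0.92, adjusted p = 0.0129). That same stretch of Linx had the highest log2 O/E of the called pairs with the first 25 kb right of the breakpoint in the control, at 2.74 and 2.51, and was at 1.29 and 1.66 in the 245kb-INV clones (log2 fold change -1.14, adjusted p = 0.00227). The start of Chic1 rose with those first 25 kb, from 0.33 and 0.57 to 1.66 and 1.34 (log2 fold change 1.05, adjusted p = 0.00403). In the 245kb-INV clones these Linx and Chic1 tiles thus overlapped in log2 O/E with the first 25 kb to the right. In the Chic1-4kbD clones they did not. For the deletion used here as the control, the paper describes fewer contacts of Chic1 with Linx and with Xite than in wild type. It also describes an apparent increase between Linx and Xite, and places these differences close to noise. The part of that deletion in the differences of the Linx and Chic1 tiles was not tested.

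The decay of counts with distance was steeper in both 245kb-INV clones than in both Chic1-4kbD clones, a difference that was not tested. Its slope on log axes from 20 to 700 kb was -0.79 and -0.79 in the 245kb-INV clones and -0.74 and -0.72 in the Chic1-4kbD clones, and every library was corrected by its own decay.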
